A study of Mus musculus with 6 samples.

Results

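The genes that make, sense and clear retinoic acid were examined in lungs that had lost *Yap* from the epithelium. The members are 9 genes chosen by symbol: *Aldh1a1*, *Aldh1a2* and *Aldh1a3* for synthesis, *Rara*, *Rarb* and *Rarg* for the receptors, *Cyp26a1* and *Cyp26b1* for breakdown, and the binding protein gene *Crabp1*. Each was found at 1 locus, so that 9 of the 24402 loci in the table, and 9 of its 23159 gene symbols, were members. RNA came from whole mouse lungs (C57BL/6) at 12.5 *dpc*, with 3 libraries from wild-type embryos (control) and 3 libraries from *Yap*-flox/flox; *Shh*-Cre/+ littermates (*Yap* mutants). In the mutants Cre is produced from 1 allele of *Shh*, a gene of the lung epithelium, so the mesenchyme keeps *Yap* and the *Shh* allele that carries Cre is itself altered. The control embryos were described as wild type, without Cre. The authors deposited 1 expression value per genotype and locus, which was read as FPKM, a level corrected for transcript length and library size. With 1 value per genotype there was no replicate check: neither the spread between libraries nor their depth is known here, no test was possible, and every difference below is a description of the deposited values. In RNA from a whole organ, fewer cells of a type and less RNA per cell cannot be told apart.

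Retinoic acid is made from vitamin A. Retinol is oxidised to retinal by retinol dehydrogenases, and retinal is oxidised to retinoic acid by the enzymes of the *Aldh1a* family. The acid binds the receptors RARA, RARB and RARG, which sit on DNA as pairs with an RXR protein, and enzymes of the CYP26 family oxidise it for removal. CRABP proteins hold it in the cytoplasm. In the embryonic foregut, retinoic acid made largely by *Aldh1a2* in the mesoderm is required for the lung buds to form. RAR and RXR pairs bind a short core sequence repeated in the same direction, and *Rarb* and *Cyp26a1* are textbook genes that answer retinoic acid through such repeats.

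Promoter windows for 8 of the 9 members were available in the RefSeq sequences (GRCm38.p6), and none was at hand for *Aldh1a3*. Each window held 250 bases before and 50 bases after an annotated start, 13 windows in all. The bases after the start were found in GENCODE transcripts for *Rarb* and *Cyp26a1*. They were not found for the only window of *Cyp26b1* and for some windows of *Rara*, *Rarg* and *Aldh1a1*, so those starts are less certain. Both strands were searched for the core AGGTCA, its variants AGTTCA or GGGTCA, and the double variant GGTTCA, each followed in the same direction by another of these cores after 1, 2 or 5 bases. With 5 bases between the cores, a repeat was found at 2 members, *Rarb* and *Cyp26a1*, and in 32 of 32851 promoter windows of all genes, or 0.0974% of them. No member window held a repeat with 1 or 2 bases between the cores, which 0.222% and 0.268% of all windows did. The 2 elements are shown because they mark the members that carry a known type of retinoic acid response element next to an annotated start. Capitals mark the cores, and each line holds 30 bases read 5′ to 3′ on the minus strand of the chromosome.
*Rarb* (chr14:16575506-16575535): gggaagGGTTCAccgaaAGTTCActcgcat
*Cyp26a1* (chr19:37697769-37697798): caaattAGTTCAcccaaAGTTCAtctttaa
The *Rarb* element reads in the direction of the gene and lies at -53 to -37 from the start on which its RefSeq window is set. That of *Cyp26a1* reads against the direction of its gene and lies at -32 to -16 from the start of its window, position 37697808, which is also the start of its locus in the table. The RefSeq gene span of *Cyp26a1* begins further upstream, at 37697738, so the element lies inside that span. Over their 17 bases the elements were identical at 15 and differed by G1A and G9C from *Rarb* to *Cyp26a1*, counted from 1 at the 5′ end of the element. A match to these letters is a description of the window and does not show that a receptor was bound there in the lung.

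*Crabp1* and *Aldh1a1* were lower in *Yap* mutant than in control lungs, and *Aldh1a2*, *Rara*, *Rarb* and *Cyp26b1* had nearly the same level in both. Log2 ratios are given as *Yap* mutant over control after 0.1 FPKM was added to both values, which understates differences at low levels. A locus was counted as lower or higher when its mean over the genotypes was 1 FPKM or more and it differed by at least 1.5-fold. Loci that meet this mean are called expressed below, and the most abundant gene of a group is the one with the highest mean over the genotypes. Of the 9 members, 7 reached this mean, and *Aldh1a3* and *Cyp26a1* did not. Among those 7, 2 were lower, 0 were higher and 5 lay within 1.5-fold. Over all 12716 loci with such a mean, 3.3% were lower and 4.44% were higher by the same rule, and 7.75% differed in either direction. The median log2 ratio was -0.08 for the 7 members and -0.01 for all these loci.

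**Figure D1:**
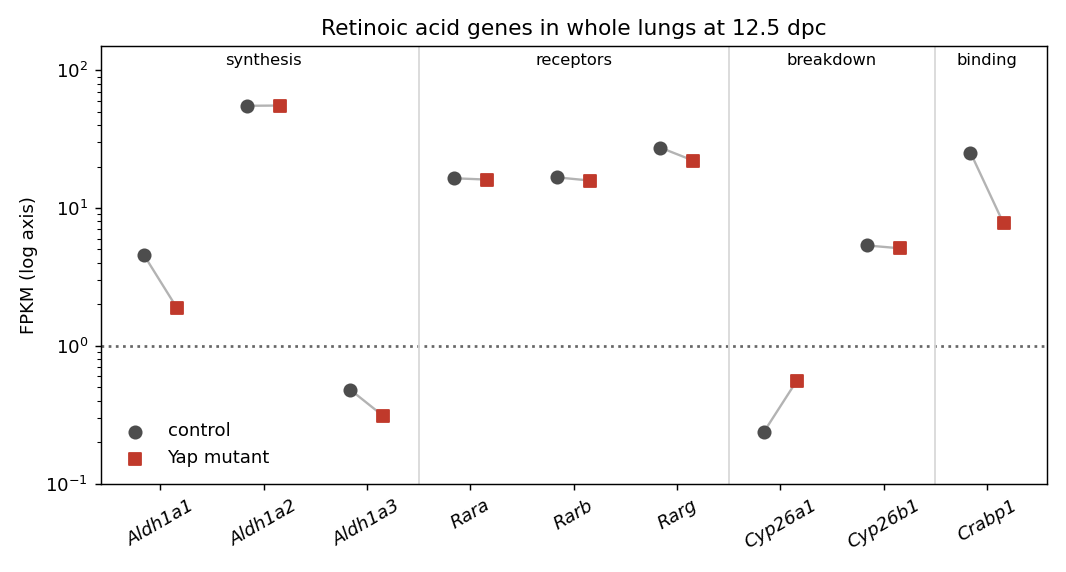
The plot gives the authors' FPKM value (log axis) of each member in control lungs (grey circles) and *Yap* mutant lungs (red squares), grouped by role, with the mean of 1 FPKM as a dotted line for orientation. Points are the deposited value per genotype, without error bars, and the 2 steep lines downward above 1 FPKM are those of *Aldh1a1* and *Crabp1*.

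For synthesis, *Aldh1a2* carried nearly all of the family's RNA and had the same level in both genotypes. *Aldh1a2*, the main enzyme of retinoic acid synthesis in embryonic mesoderm, lies on the plus strand of chromosome 9 from 71215789 to 71296243 (mm10). The authors' value was 55.2 FPKM in the control lungs against 55.4 FPKM in the mutants, a log2 ratio of 0.01. The level in control lungs was higher than that of 93.6% of all loci. *Aldh1a1*, which encodes a related retinal dehydrogenase that is also found in epithelia, lies on the plus strand of chromosome 19 from 20492628 to 20643462. Its authors' value was 4.58 FPKM in the control lungs against 1.89 FPKM in the mutants. It was thus 2.43-fold lower in the mutants, a log2 ratio of -1.24, which ranked 101 from the lowest among the 12716 loci. GENCODE places a noncoding gene, *C730002L08Rik*, on the opposite strand of this locus, and whether the authors counted reads by strand is not known here. *Aldh1a3*, the remaining member of the family (chromosome 7, minus strand, 66390893 to 66427477), had 0.479 FPKM in the control lungs against 0.308 FPKM in the mutants, under the mean required for a count in either direction.

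Summed over the 3 genes, the *Aldh1a* family had 60.2 FPKM in the control lungs against 57.6 FPKM in the mutants. *Aldh1a2* made up 91.6% of this sum in control and 96.2% in *Yap* mutant lungs. The share of *Aldh1a1* was 7.61% and 3.28%. The ratio of *Aldh1a2* to *Aldh1a1* was therefore 12.03 in control and 29.3 in *Yap* mutant lungs. The gene that differed was thus the less abundant one, and the family totals were close.

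All 3 receptor genes were expressed, and none differed by 1.5-fold, as is the case for most expressed loci, of which 7.75% did. *Rarg* was the most abundant receptor gene in both genotypes, at 27.4 FPKM in the control lungs against 22.0 FPKM in the mutants. Its log2 ratio of -0.31 corresponds to a level 19.6% lower, and its rank was 889 from the lowest of the 12716 loci. It lies on the minus strand of chromosome 15 from 102234940 to 102257483. *Rara*, on the plus strand of chromosome 11 from 98927795 to 98975041, had 16.4 FPKM in the control lungs against 16.1 FPKM in the mutants (log2 ratio -0.03). *Rarb*, which carries the repeat shown above, had 16.7 FPKM in the control lungs against 15.8 FPKM in the mutants (log2 ratio -0.08). Of all expressed loci, 46.5% lay within 0.1 of 0 on the log2 scale, as *Rara* and *Rarb* did.

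The *Rarb* locus runs on the minus strand of chromosome 14 from 16430790 to 16575649 and covers 22.2% of the span that RefSeq gives the gene. It includes the start beside the repeat and leaves out the starts further upstream. The values of *Rarb* therefore describe the transcripts from that start onward and do not tell the isoforms apart. The far end of the locus overlaps *Top2b*, a gene read on the opposite strand. Summed over the receptors, the authors' values came to 60.5 FPKM in the control lungs against 53.9 FPKM in the mutants. The share of *Rarg* in this sum was 45.3% in control and 40.9% in *Yap* mutant lungs. For the partner receptors, *Rxrb* was the most abundant, at 32.4 FPKM in the control lungs against 30.3 FPKM in the mutants. The sum of the RXR genes was 61.1 FPKM in the control lungs against 57.8 FPKM in the mutants, and *Rxrg* contributed 1.34% and 1.42% of it.

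For breakdown, *Cyp26b1* was the expressed gene and had similar values in both genotypes. *Cyp26b1* lies on the minus strand of chromosome 6 from 84571414 to 84593908. The authors' value was 5.35 FPKM in the control lungs against 5.10 FPKM in the mutants, a log2 ratio of -0.07. *Cyp26a1*, the other gene with a repeat beside its start, lies on the plus strand of chromosome 19 from 37697808 to 37701536. It had 0.236 FPKM in the control lungs against 0.558 FPKM in the mutants. The log2 ratio of *Cyp26a1* was 0.97 with 0.1 FPKM added and 0.33 with 1 FPKM added, so its size rests on that choice. Its neighbour *Cyp26c1* was listed at 0.0126 FPKM in the control lungs against 0.0155 FPKM in the mutants. The members with a repeat thus included 1 gene at a moderate level and 1 gene below 1 FPKM.

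*Crabp1* differed more than any other expressed member. It encodes a small cytoplasmic protein that binds retinoic acid, and it lies on the plus strand of chromosome 9 from 54764808 to 54773109, with 4 exons in GENCODE. The authors' value was 25.3 FPKM in the control lungs against 7.73 FPKM in the mutants, 3.27-fold lower in the mutants. The log2 ratio of -1.69 ranked 53 from the lowest among the 12716 loci. Among the 9544 loci whose mean was 5 FPKM or more, 20 had a ratio as low or lower, *Crabp1* included. In control lungs *Crabp1* was the third most abundant member after *Aldh1a2* and *Rarg*. In *Yap* mutant lungs it stood below *Rara* and *Rarb* as well.

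The related gene *Crabp2*, whose protein carries retinoic acid to the nucleus, was higher in the mutants by a margin close to the 1.5-fold limit. *Crabp2* had 35.7 FPKM in the control lungs against 54.1 FPKM in the mutants, a log2 ratio of 0.60. *Crabp2* was 1.41 times as abundant as *Crabp1* in control and 6.99 times as abundant in *Yap* mutant lungs. The share of *Crabp1* in the sum of both genes was 41.4% in control and 12.5% in *Yap* mutant lungs. The sum itself was 61.0 FPKM in the control lungs against 61.8 FPKM in the mutants, so the composition of the pair differed far more than its total.

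**Figure D2:**
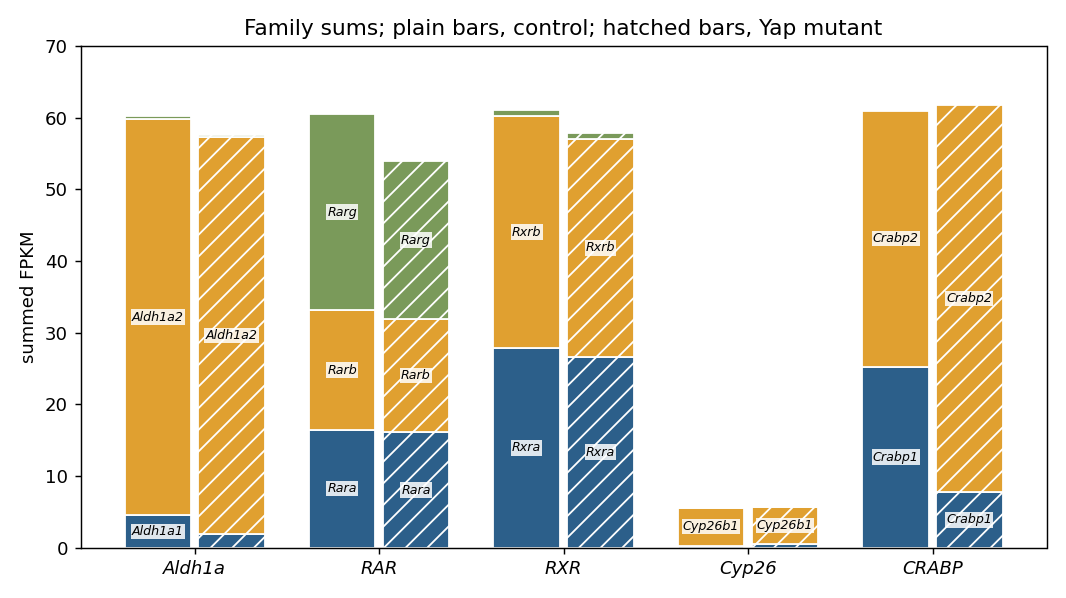
Stacked bars give the summed FPKM (linear axis from 0) of the retinal dehydrogenase, RAR, RXR, CYP26 and CRABP genes in control lungs (plain) and *Yap* mutant lungs (hatched), from the authors' value per genotype and without error bars. The CRABP bars are nearly equal in height, at 61.0 and 61.8 FPKM, while the *Crabp1* segment is 25.3 FPKM in control and 7.73 FPKM in the mutants.

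Apart from *Crabp1*, the members lay in the same broad tiers in both genotypes. *Crabp1* had 25.3 FPKM in the control lungs, above *Rara* and *Rarb*, and 7.73 FPKM in the mutants, below them. *Aldh1a2* was the highest member, *Rarg* the second, and *Aldh1a3* and *Cyp26a1* were the lowest pair. *Rara* and *Rarb* were neighbours with nearly equal values, and they exchanged places between the genotypes. *Aldh1a3* and *Cyp26a1* also exchanged places, both below 1 FPKM. Since the spread between libraries is unknown, it cannot be said which neighbours in this order differ beyond it. The share of loci past 1.5-fold depends on the level, and both lower members were read against loci of their own range. Among the 3172 loci with a mean from 1 to under 5 FPKM, the range of *Aldh1a1*, 7.5% were lower. Among the 5004 loci from 5 to under 20 FPKM, the range of *Crabp1*, 2.48% were lower.

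**Figure D3:**
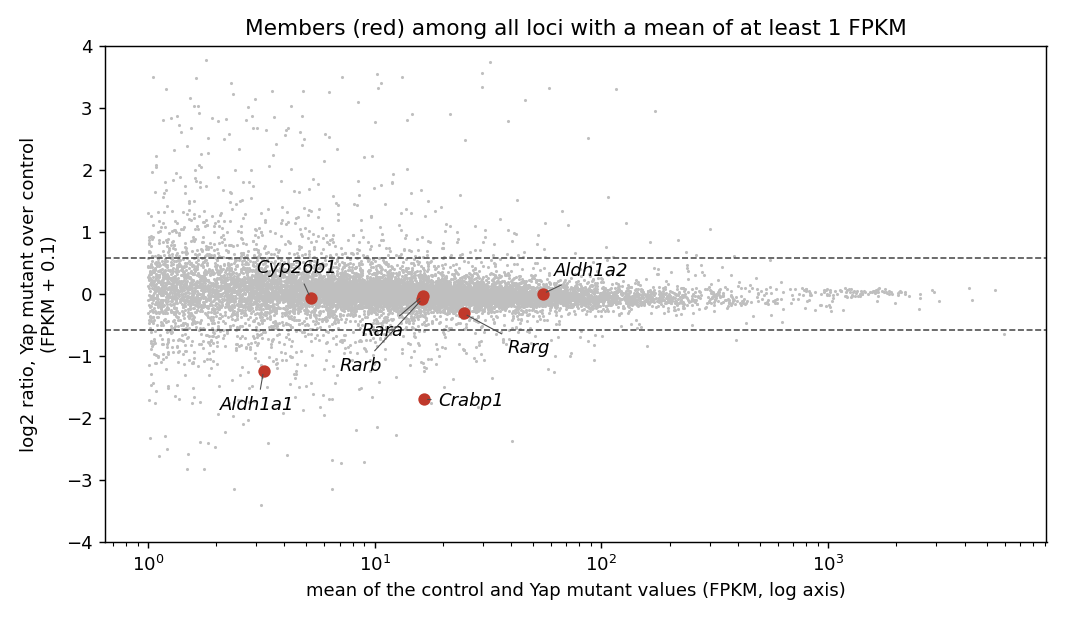
Each grey point is an expressed locus (mean of 1 FPKM or more), placed by that mean (log axis) and by the log2 ratio of *Yap* mutant over control, with the 7 members of that level in red and dashed lines at 1.5-fold. *Crabp1* and *Aldh1a1* lie below the lower line and the other 5 within the lines, and 29 loci fall outside the plotted range of -4 to 4.

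The other retinoid genes were described from lists arranged by role. Of 47 symbols, 46 had a locus, and 32 of these loci were expressed. By the 1.5-fold rule 5 were higher and 2 were lower in *Yap* mutant lungs, and 25 lay within it. These counts are 15.6% and 6.25% of the 32 loci, beside 4.44% and 3.3% of all loci. *Crabp2* and *Lrat* lay just past 1.5-fold, and 3 loci in place of 5 were higher with 1 FPKM added or relative to the mesenchyme markers, without this pair. The median log2 ratio of the 32 loci was 0.08. Relative to the median of the epithelium markers, -0.60, every ratio rises by 0.60 and the median of all loci becomes 0.59. The ratios of *Rara*, *Rarb*, *Rarg*, *Cyp26b1* and *Aldh1a3* then turn positive. *Aldh1a2* reaches 0.60 and passes 1.5-fold, and *Crabp1* and *Aldh1a1* stay lower. Relative to mesenchyme markers *Aldh1a2* turns to -0.02. With the epithelium markers as reference 6626 loci are higher and 107 lower, so that 98.4% of the loci past 1.5-fold are higher, beside 57.4% without it.

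Of 6 expressed uptake and carrier loci, 3 were higher and 1 was lower by the 1.5-fold rule. This is 66.7% in either direction, beside 7.75% of all expressed loci. *Stra6*, which encodes the cell-surface receptor that takes retinol up from its blood carrier, was lower, at 11.03 FPKM in the control lungs against 5.65 FPKM in the mutants (log2 ratio -0.95). *Rbp4*, the gene of that blood carrier, was higher, at 3.58 FPKM in the control lungs against 7.12 FPKM in the mutants (log2 ratio 0.97). *Ttr*, whose protein transthyretin binds the carrier in blood, had 0.492 FPKM in the control lungs against 13.5 FPKM in the mutants (log2 ratio 4.52). Both carrier genes are known for their expression in liver and yolk sac. Of 4 expressed liver and foregut markers, 3 were also higher in the mutants (*Afp*, *Trf* and *Apoa1*), and the summed level of all 8 was 13.8 FPKM in the control lungs against 47.0 FPKM in the mutants. *Alb*, the defining liver gene, had 1.28 FPKM in the control lungs against 1.14 FPKM in the mutants, and the part of such tissue in the values of *Rbp4* and *Ttr* was not tested. *Fabp5*, the most abundant gene of this group, had 175.1 FPKM in the control lungs against 166.1 FPKM in the mutants (log2 ratio -0.08).

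Among the genes that interconvert retinol and retinal, *Rdh10* was the 1 locus past 1.5-fold of 8 that were expressed. This is 12.5%, beside 7.75% of all expressed loci. *Rdh10* encodes the retinol dehydrogenase that supplies retinal to the *Aldh1a* enzymes in the embryo. It had 25.2 FPKM in the control lungs against 15.6 FPKM in the mutants (log2 ratio -0.69). *Dhrs3*, whose enzyme works in the reverse direction and turns retinal back into retinol, had 14.5 FPKM in the control lungs against 17.96 FPKM in the mutants (log2 ratio 0.30). The ratio of *Rdh10* to *Dhrs3* was 1.74 in control and 0.867 in *Yap* mutant lungs, a comparison chosen after the values were seen. *Adh5*, the most abundant gene of the group, had 142.7 FPKM in the control lungs against 134.2 FPKM in the mutants (log2 ratio -0.09). For storage, 1 of 4 expressed loci was past 1.5-fold, or 25%, beside 7.75% of all expressed loci. This was *Lrat*, which makes retinyl esters. It was higher at a low level, with 1.69 FPKM in the control lungs against 2.60 FPKM in the mutants (log2 ratio 0.60). *Scarb1*, the most abundant of that group, had 19.3 FPKM in the control lungs against 20.1 FPKM in the mutants (log2 ratio 0.06). In the small group of other oxidation enzymes, *Cyp1b1* was the 1 expressed locus of 4 and had 4.08 FPKM in the control lungs against 4.19 FPKM in the mutants.

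Of 11 genes for corepressors, coactivators and related orphan receptors, all were expressed. Of these, 1 was past 1.5-fold, or 9.09%, beside 7.75% of all expressed loci. The gene past 1.5-fold was *Nr2f1*, which encodes the orphan receptor COUP-TFI, known to compete with RARs for DNA sites. It had 27.5 FPKM in the control lungs against 54.4 FPKM in the mutants (log2 ratio 0.98). *Nr2f6*, with the highest mean of the group, had 46.6 FPKM in the control lungs against 46.8 FPKM in the mutants (log2 ratio 0.01). The group's median log2 ratio was 0.12. No RAR or RXR gene was past 1.5-fold, and neither were most expressed loci. Of the 7 other retinoid loci past 1.5-fold, 4 belonged to uptake and carriage, and interconversion, storage and coregulators held 1 each.

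**Figure D4:**
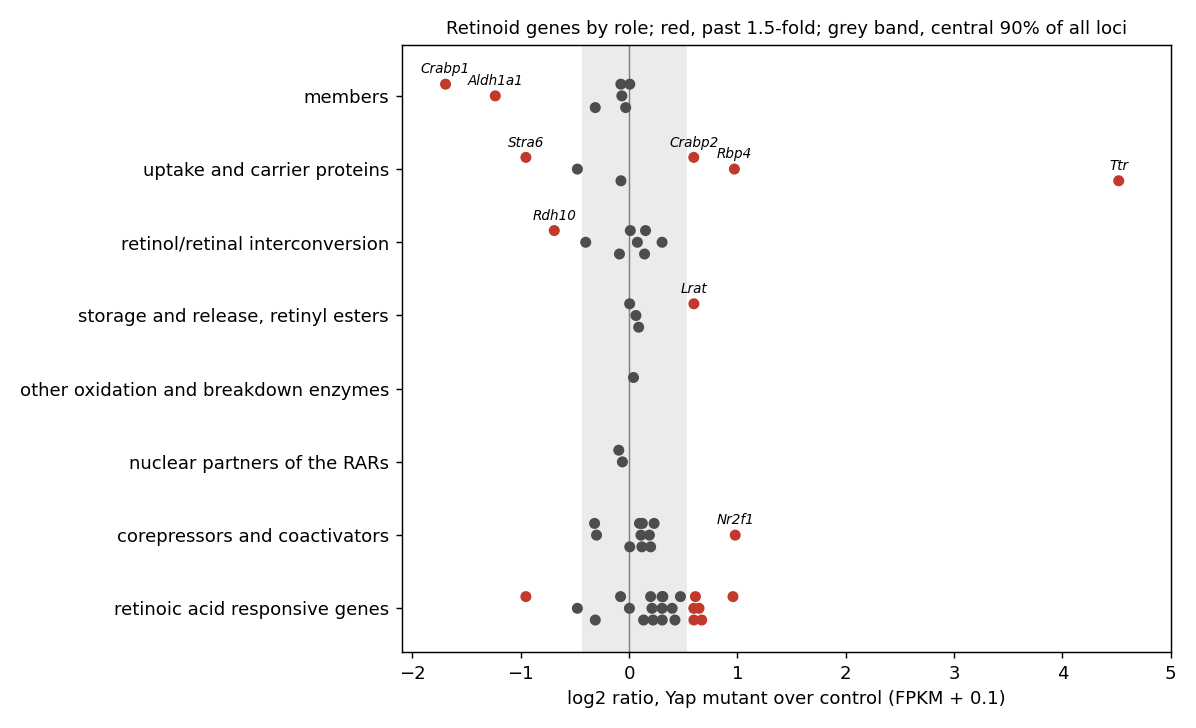
Each point is an expressed locus (mean of 1 FPKM or more), placed by the log2 ratio of *Yap* mutant over control and by role, with loci past 1.5-fold in red and, outside the row of responsive genes, named. The grey band holds the central 90% of all loci, from -0.42 to 0.53, and *Crabp1*, *Aldh1a1*, *Stra6* and *Rdh10* lie to its left.

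Genes known to answer retinoic acid in embryos were taken as a list of 24, of which 6 are also on the lists above. They had 26 loci, and 22 of these were expressed. By the 1.5-fold rule 6 were higher and 1 was lower in *Yap* mutant lungs, or 27.3% and 4.55% of the 22, beside 4.44% and 3.3% of all expressed loci. At any size, 18 had a ratio above 0 and 4 below 0, whereas 51.8% of all expressed loci had a ratio below 0. The median log2 ratio was 0.30, beside -0.01 for all expressed loci. Without the genes shared with the lists above, 16 loci remained, of which 4 were higher and 0 lower, with a median of 0.31. With 1 FPKM in place of 0.1 FPKM added to each value, 1 of the full 22 loci was higher and 1 lower. With 0.1 FPKM added, the lower gene of the 22 was *Stra6*. The 6 higher loci at that setting included *Crabp2* and *Lrat*, described above.

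*Rarres1* had 1.61 FPKM in the control lungs against 2.52 FPKM in the mutants (log2 ratio 0.61), and *Rarres2*, which encodes chemerin, had 3.22 FPKM in the control lungs against 5.19 FPKM in the mutants (log2 ratio 0.67). *Hoxb5* had 2 loci with the same coordinates. The locus XLOC_003879 was higher, at 3.97 FPKM in the control lungs against 6.26 FPKM in the mutants, and XLOC_003069 lay within 1.5-fold at 69.6 FPKM in the control lungs against 91.7 FPKM in the mutants. The 8 expressed *Hox* loci of the list all had ratios above 0, between 0.13 and 0.65 on the log2 scale. *Hoxa5* shares its locus with *Hoxa6*, so its value is a joint one. The members *Rarb* and *Cyp26a1*, which are responsive genes too, were left out of this list.

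Cell type markers also differed between the genotypes, and their part in the values of the members was not tested. The lung marker *Nkx2-1* was expressed in both genotypes. It was lower in the mutants by the 1.5-fold rule, at 61.9 FPKM in the control lungs against 35.9 FPKM in the mutants (log2 ratio -0.78). Epithelium markers were lower at 9 and higher at 1 of 15 loci, with a median log2 ratio of -0.60. *Cldn6* and *Epcam* had the highest means over the genotypes. The higher locus was *Sftpc*, at 28.4 FPKM in the control lungs against 55.8 FPKM in the mutants. *Crabp1* had a ratio below that of all but 1 of these 15 epithelium loci, *Shh*, of which 1 allele carries Cre in the mutants. Its ratio of -1.69 was nearly equal to that of *Sox2*, also -1.69. *Aldh1a1* had a ratio below that of all but 3. Mesenchyme markers had a median of 0.02 over 13 loci, with 3 lower (*Foxf1*, *Twist2* and the minor locus of *Tcf21*), and *Col3a1* and *Vim* had the highest means. Every one of these 13 loci had a higher ratio than *Crabp1* and *Aldh1a1*. The lower *Tcf21* locus, XLOC_001399, had 3.70 FPKM in the control lungs against 1.96 FPKM in the mutants. The more abundant *Tcf21* locus, XLOC_001949, lay within 1.5-fold at 57.4 FPKM in the control lungs against 39.2 FPKM in the mutants. Smooth muscle markers, with *Acta2* and *Actg2* the highest by mean, had a median of -1.06, with 5 lower and 1 higher of 7 loci, and their sum was 288.9 FPKM in the control lungs against 147.8 FPKM in the mutants. Of these 7 loci, 2 had a ratio below that of *Crabp1* and 3 a ratio below that of *Aldh1a1*. Neural markers, led by *Gap43* and *Stmn2*, had a median of -0.57, with 4 of 8 loci lower.

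Mesothelium, where *Aldh1a2* is known to be strong, had a median log2 ratio of 0.31 over 8 marker loci, and the sum of its 9 loci was 100.7 FPKM in the control lungs against 101.7 FPKM in the mutants. Its most abundant markers went different ways, with *Upk3b* at 33.9 FPKM in the control lungs against 42.0 FPKM in the mutants and *Krt7*, which epithelium also expresses, at 31.7 and 17.1 FPKM. Cardiac muscle markers, with *Myl7* and *Actc1* the highest by mean, were higher at all 9 expressed loci, and the sum of all 11 was 100.3 FPKM in the control lungs against 678.2 FPKM in the mutants. *Aldh1a2* and *Nr2f1* are also expressed in parts of the embryonic heart, so their whole-lung values stand beside this difference. Endothelium markers, led by *Cldn5* and *Cdh5*, had a median of 0.17 over 8 loci, and erythroid markers, led by *Hbb-y* and *Hba-a1*, one of 0.24 over 6 loci. No marker locus of these lists was at 0 in either genotype.

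**Figure D5:**
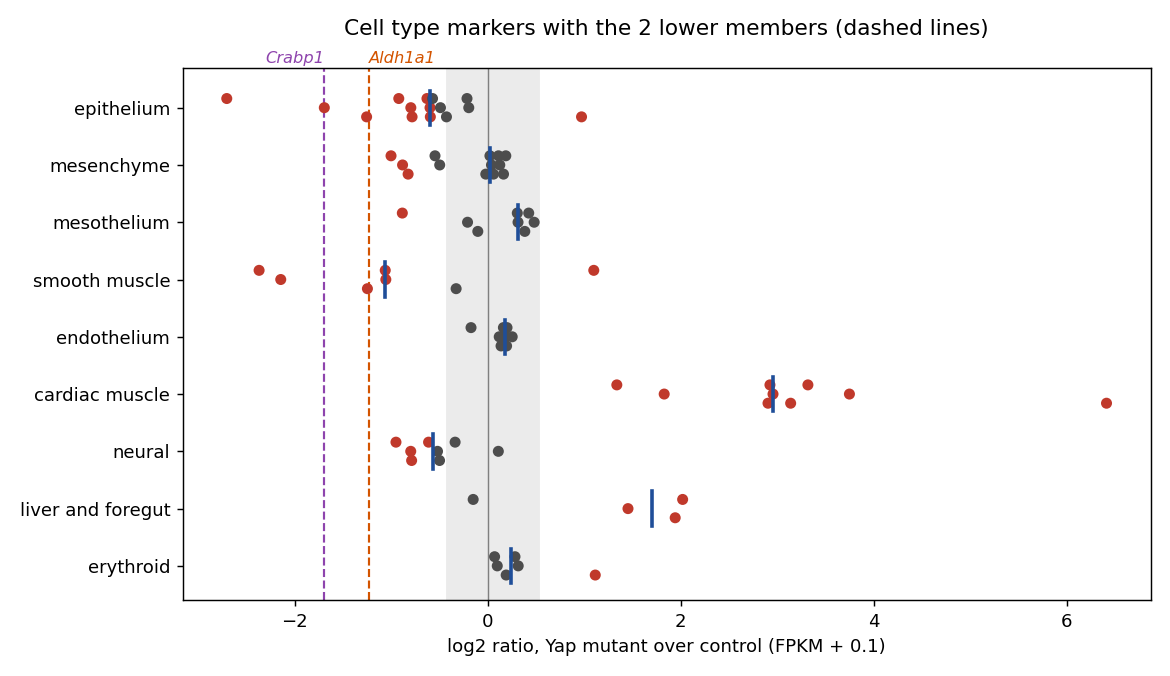
Each point is an expressed marker locus (mean of 1 FPKM or more), placed by the log2 ratio of *Yap* mutant over control and by cell type, with loci past 1.5-fold in red, medians as blue bars and the central 90% of all loci as a grey band. The dashed lines at -1.69 (*Crabp1*) and -1.24 (*Aldh1a1*) lie left of every mesenchyme, mesothelium, endothelium and neural marker plotted.

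*Yap1*, the targeted gene, lies on chromosome 9 from 7932001 to 8004596 and had 76.1 FPKM in the control lungs against 65.6 FPKM in the mutants. The value covers the whole gene and all cells of the lung, and so does not measure the deletion in the epithelium. The groups also differed in the sex of the embryos, since 4 Y-linked genes had at most 0.0163 FPKM in control and 4.61 to 16.5 FPKM in *Yap* mutant lungs. The mutant embryos thus included males, and little or no control RNA came from males. The members lie on autosomes. A part of sex in their values was not tested and cannot be told apart from that of genotype.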

How the data were processed

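RNA-Seq of whole lungs at 12.5 *dpc* was used, with 3 control and 3 *Yap* mutant libraries. The number of embryos per library is not known here. The submitters' processing notes name TopHat, Cuffdiff and mm10, and the paper's methods name stranded paired-end libraries and the Maverix platform. For versions and counting options: not given in the sources used here. The 2 deposited tables, one of all loci and one of 2395 loci, give 1 FPKM value per genotype, made by the authors. The unit was read from the Cuffdiff layout, since the tables do not name it. The depth of each library is unknown. The authors' fold changes and p-values were not used. Log2 ratios were computed after adding 0.1 FPKM, and loci whose mean was 1 FPKM or more and that differed 1.5-fold were counted, with no test. The counting steps were also run on simulated data. Whether a counted difference exceeds the spread between libraries was not tested. Locus starts in the tables count from 0 (9308 loci then start at the RefSeq gene, against 617 as written), so 1 was added. Of 20917 loci with a RefSeq gene of that symbol on the same chromosome, 99.1% overlapped it.

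Named were all members, *Yap1*, retinoid and responsive genes past 1.5-fold, the most abundant gene of each role and the 2 most abundant markers of each cell type. *Nkx2-1*, *Foxf1*, *Tcf21*, *Twist2*, *Apoa1*, *Alb*, *Dhrs3*, *Cyp26c1*, *Rxrg*, *Top2b*, *C730002L08Rik*, *Hoxa5*, *Hoxa6*, the Y-linked genes and, chosen by their promoter repeats, *Tnfsf13b*, *Blvrb*, *Ppbp*, *Syndig1*, *Ano1* and *Tinagl1* fall outside this rule, and 2 responsive genes that it covers are not reported here, although the counts include them. The epithelium markers *Sox2*, *Shh* and *Sftpc* also fall outside the naming rule. The members and lists were chosen with earlier results of these data known. The alternatives were pseudocounts of 1 and 0.01 FPKM, no filter, a mean of 5 FPKM or more, 2-fold, ratios relative to the median of all loci, of epithelium or of mesenchyme markers, and the values of the smaller table. Promoter sequences are those of RefSeq (GRCm38.p6), and gene models those of GENCODE M21. Python 3.11.15, numpy 2.4.6, pandas 2.3.3 and matplotlib 3.10.9 were used.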

Additional observations from a re-analysis of the deposited data

How the results depend on the processing

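*Crabp1* and *Aldh1a1* had a ratio below 0 under the 5 alternatives that alter a ratio (2 other pseudocounts and 3 reference medians), from -1.72 to -1.10 for *Crabp1* and from -1.27 to -0.64 for *Aldh1a1*, and both were past a 2-fold threshold. With a mean of 5 FPKM or more required, *Aldh1a1* dropped out and 1 member was left past 1.5-fold. The members' median was -0.0724 with 1 FPKM added, -0.0719 with the mean of 5 FPKM, -0.0703 relative to all loci, -0.0985 relative to mesenchyme markers, and 0.52 relative to epithelium markers. That last alternative shifts the ratios by construction. It left 22 other retinoid loci and 18 responsive loci past 1.5-fold, all higher, with medians of 0.68 and 0.90. For the other retinoid genes the median was 0.0240 with no filter, 0.0881 relative to all loci and 0.0600 relative to mesenchyme markers, and 1 locus was past 2-fold. For the responsive genes, 2 loci were past 1.5-fold with 1 FPKM added, 4 with a mean of 5 FPKM or more, and 0 past 2-fold. Their median was 0.31 with 0.01 FPKM added and relative to all loci, and 0.28 relative to mesenchyme markers. Counts over all loci also moved, from 565 higher and 420 lower to 6626 and 107 relative to epithelium markers, to 274 and 163 at 2-fold, to 217 and 182 with a mean of 5 FPKM or more, and to 1553 and 1016 with no filter. The values of the smaller table changed none of the counts or medians of the members, other retinoid genes or responsive genes. No paired analysis was possible because the tables hold 1 value per genotype, and leaving out a library could not be run for the same reason.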

Other observations

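The repeat found at *Rarb* and *Cyp26a1*, with 5 bases between the cores, was followed to the other genes that carry it within the RefSeq promoter windows. The set was chosen after the members' values were seen, and no test was made on it. Of the 31 symbols with such a window, 9 had a locus in the table, and 6 of these had a mean of 1 FPKM or more. Their median log2 ratio was 0.12, with 1 higher and 0 lower by the 1.5-fold rule, beside 4.44% higher and 3.3% lower of all loci of that level. The higher gene was *Tnfsf13b*, which encodes the B cell survival factor BAFF, with 5.45 FPKM in the control lungs against 10.7 FPKM in the mutants (log2 ratio 0.95). *Blvrb*, a biliverdin reductase gene, had 15.6 FPKM in the control lungs against 17.2 FPKM in the mutants. The embryonic globin gene *Hbb-y* had 4020 FPKM in the control lungs against 4303 FPKM in the mutants. *Ppbp*, *Syndig1* and *Rarb* made up the rest, and all 3 lay within 1.5-fold.

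Repeats with 1 base between the cores were not followed to other genes. The cores with 2 bases between them, which no member window held, were found near 84 symbols. Of these, 16 had a locus and 10 a mean of 1 FPKM or more. Their median log2 ratio was -0.04, with 0 higher and 2 lower by the 1.5-fold rule, beside the same 4.44% and 3.3%. These were *Ano1*, a chloride channel gene, at 7.68 FPKM in the control lungs against 2.77 FPKM in the mutants, and *Tinagl1*, which encodes a matrix protein, at 5.25 FPKM in the control lungs against 3.14 FPKM in the mutants.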
